A study of Arabidopsis thaliana with 12 samples.

Results

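The 6 genes described here are the subunits of the cytochrome b6f complex that Arabidopsis encodes in its plastid genome: petA (ATCG00540), petB (ATCG00720), petD (ATCG00730), petG (ATCG00600), petL (ATCG00590) and petN (ATCG00210). They were chosen by gene identifier, and they are 6 of the 28775 genes in the count files and 6 of the 79 protein-coding plastid genes. All 6 passed the filters on low counts in every comparison. Whole rosettes of Col-0 plants aged 3 weeks were used, all of which had first spent 10 days in dim light of 8 µmol photons m-2 s-1. Plants of the high light (HL) groups were then moved to 800 of the same units for 10 min, and those of the low light (LL) groups stayed at 8. Ribosome-protected fragments (RPF), the pieces of mRNA that a translating ribosome shields from RNase, and total RNA were each sequenced from 3 libraries per light condition, described as biological replicates, giving the groups RPF HL, RPF LL, total RNA HL and total RNA LL. Whole rosettes mix leaf cell types, so fewer cells of a type and less RNA per cell cannot be told apart.

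The cytochrome b6f complex sits in the thylakoid membrane between the photosystems. It oxidises plastoquinol, passes the electrons to plastocyanin and moves protons into the thylakoid lumen, and it also takes part in cyclic electron flow and in sensing the redox state that governs state transitions. Most of its subunits are made by plastid ribosomes, but the Rieske iron-sulfur protein (PETC) and the small subunit PETM are encoded in the nucleus and made in the cytosol, so that assembly draws on both compartments. Plastid genes are commonly transcribed together with their neighbours, and the long transcripts are cut and spliced by nucleus-encoded RNA-binding proteins.

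All 6 genes lie on the plus strand of the TAIR10 plastid chromosome. Among the large subunits, petA (61657 to 62619) encodes cytochrome f and lies 226 bases past cemA. petB (74841 to 76292) encodes cytochrome b6 and lies 134 bases past psbH, and petD (76481 to 77672), which encodes subunit IV, begins 188 bases past petB. The spans of petB and petD include an intron each, and reads were counted over the whole span. Of the genes for the small membrane-spanning subunits, petL (65712 to 65807, 96 bases) and petG (65998 to 66111, 114 bases) are 190 bases apart, and petN (28089 to 28178, 90 bases) lies far from them.

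The RPF libraries held between 1162389 and 2119227 counts on protein-coding genes, and the total RNA libraries between 2438332 and 16053563. The RPF libraries numbered 1 stood apart, with rRNA at 82.7% to 84.6% of all counts, and total RNA LL library 1 was the smallest of its kind and held 3.78% mitochondrial counts, so results are also given without them where that matters. The mesophyll genes CAB1, RBCS1A and CA1, which mark green leaf tissue, summed to 8328 to 15161 CPM (counts per 1000000 of the normalised library size) in RPF HL, against 6333 to 7980 CPM in RPF LL. In total RNA they summed to 10598 to 11666 CPM in HL and 11412 to 13125 CPM in LL. The RPF sums did not overlap between HL and LL, but the 3 genes did not differ alike. In RPF, CAB1 averaged 7689 CPM in HL and 4002 in LL, RBCS1A 3830 and 2953, and CA1 412 and 378. The root genes PHT1;1 and NRT2.1 summed to at most 1.96 CPM in any group. The markers of guard cells, epidermis and phloem overlapped between HL and LL in RPF and in total RNA, and the part that cell types play in the results below was not tested.

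The 3 large subunits carried most of the footprints. petB and petD together made up 88.1% to 89.8% of the counts of the 6 genes in RPF and 84.4% to 91.3% in total RNA. Per kilobase of gene span, the RPF level of petB averaged 9135 CPM per kb over the 6 RPF libraries, above petD at 7081 CPM per kb in 6 of 6 libraries. petA followed at 2288 and petN at 2155 CPM per kb, and this pair was not separated, since petA was the higher in 4 of 6 libraries. petG, at 1309 CPM per kb, lay below petN in 6 of 6 libraries and above petL, at 1209 CPM per kb, in 5 of 6. In total RNA the order differed in that petN came first, at 7691 CPM per kb, above petB at 5232 in 6 of 6 libraries. There petD averaged 4684, petA 1122, petG 919 and petL 676 CPM per kb, with petD above petA in 6 of 6 libraries but petA above petG in 4 of 6. Among the 79 plastid genes ranked by RPF level per kilobase in HL, petB was number 13, petD 17, petA 32, petN 33, petG 42 and petL 48. In LL the RPF ranks were 12, 17, 34, 36, 44 and 45 in the same order of genes. In total RNA petN ranked 11 in HL and 14 in LL. These levels divide by the whole span, so a spliced intron lowers the values of petB and petD.

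The first question was whether footprints on these transcripts changed within 10 min of high light. They showed no detectable change at this depth and number of libraries. The edgeR quasi-likelihood test called 0 of the 6 genes at an adjusted p under 0.05, where 0.223% of all 10759 genes were called (24 genes; 360 had an unadjusted p under 0.05). When replicate numbers were used as pairs the count was again 0 of 6, where 1.82% of all genes were called, and DESeq2 also called 0 of 6. Without both RPF libraries numbered 1 it was again 0 of 6.

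petA, for cytochrome f, had 1771, 2829 and 1922 CPM in RPF HL, against 1912, 2572 and 2212 CPM in RPF LL. petB, for cytochrome b6, had 11818, 16417 and 9855 CPM in RPF HL and 12066, 17058 and 12372 CPM in RPF LL. petD, for subunit IV, had 7315, 10066 and 7048 CPM in RPF HL and 7525, 10243 and 8449 CPM in RPF LL. The ranges overlapped for all 3 large subunits, and in both lights library 2 was the highest. Within pairs of the same number, petB and petD were lower in HL in 3 of 3 pairs and petA in 2 of 3. The log2 difference, HL minus LL, was -0.04 ± 0.27 for petA, -0.12 ± 0.28 for petB and -0.10 ± 0.26 for petD (SE, n = 3 each; edgeR adjusted p = 0.99994 for each).

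The small subunits gave fewer counts, 87 to 519 per RPF library. petG had 166, 167 and 108 CPM in RPF HL, against 158, 194 and 103 CPM in RPF LL. petL had 115, 125 and 85.2 CPM in RPF HL and 93.4, 162 and 117 CPM in RPF LL. petN had 238, 196 and 166 CPM in RPF HL and 228, 160 and 176 CPM in RPF LL. HL and LL overlapped for each of these genes, and none moved the same way in all 3 pairs. The log2 differences were -0.04 ± 0.29 for petG, -0.18 ± 0.27 for petL and 0.09 ± 0.25 for petN (SE, n = 3 each; edgeR adjusted p = 0.99994).

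**Figure D1:**
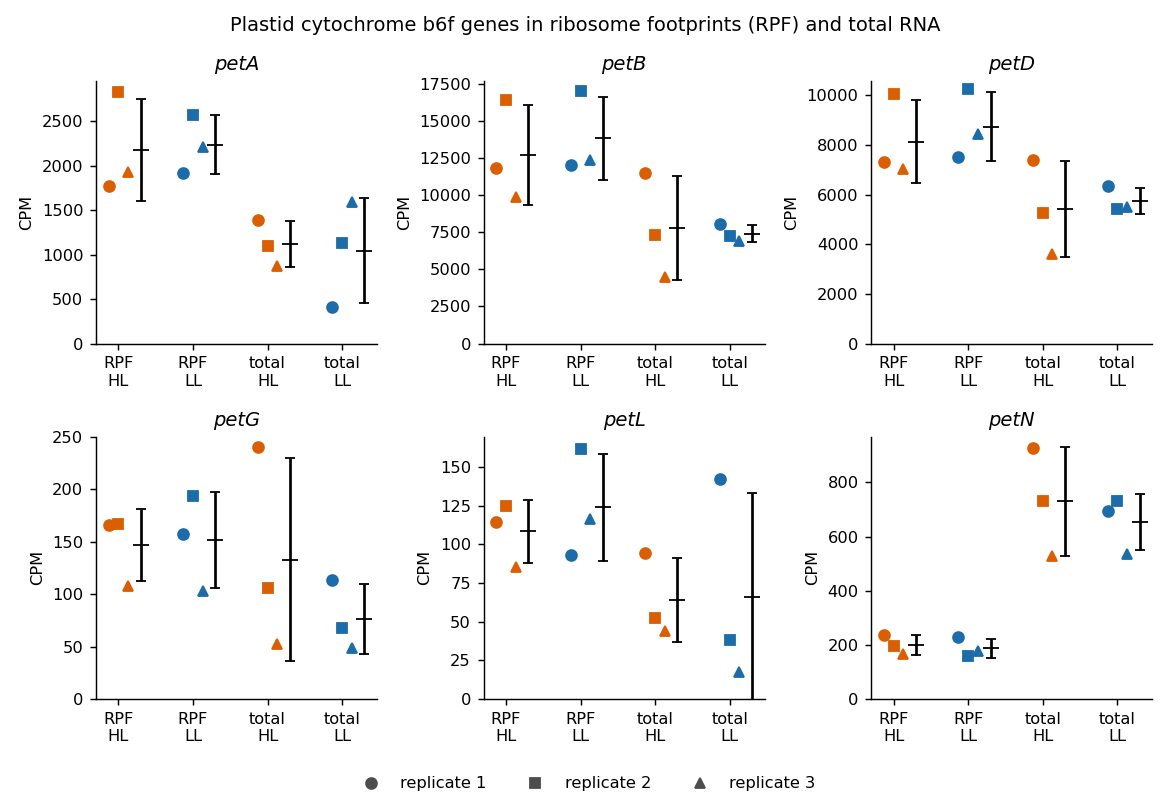
Level of each of the 6 plastid cytochrome b6f genes in CPM (vertical axes from 0) in RPF and total RNA, with high light (HL, orange) left of low light (LL, blue). Symbols are libraries by replicate number, and black bars are the mean and SD of 3 libraries, cut off at 0. HL and LL overlap in every panel, and petN, at 166 to 238 CPM in RPF HL and 528 to 929 CPM in total RNA HL, sits lower in RPF than in total RNA in both lights.

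Over the 6 genes the median log2 difference in RPF was -0.07, beside -0.13 over the 64 other plastid genes tested and -0.0025 over all genes. The 95% intervals ended between 0.39 (petL) and 0.64 (petN) on the upper side and between -0.46 (petN) and -0.76 (petL) on the lower. With scaling factors taken from plastid genes alone, the median of all genes moved to 0.15 and the values of petA, petB, petD and petG turned positive, at 0.02 to 0.13. Relative to that median they were again -0.02 to -0.13, with petL at -0.16 and petN at 0.09.

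psbA, which encodes the rapidly replaced D1 protein of photosystem II, had the largest log2 difference in RPF among the plastid genes tested and serves as a yardstick. Its RPF level averaged 260130 ± 24007 CPM in HL and 100960 ± 20044 CPM in LL (SD, n = 3 each). The groups did not overlap, and the log2 difference was 1.37 ± 0.26 (SE, edgeR adjusted p = 0.0754), which lies above the upper interval end of each of the 6 genes. It missed the threshold without the pairs and passed it with them, at 1.38 ± 0.09 (SE, edgeR adjusted p = 2.45e-34). The ratio of psbA to petB counts, which needs no scaling between libraries, was 22.7, 14.2 and 28.3 in RPF HL, against 7.49, 5.19 and 10.0 in RPF LL. It was higher in HL in 3 of 3 pairs with no overlap between the groups, a log2 difference of 1.52 (exact permutation test, two-sided, p = 0.1, the smallest that 3 against 3 allows; adjusted p = 0.4 over the 4 ratio tests). In total RNA the ratio was 50.9, 71.0 and 67.5 in HL and 55.5, 68.7 and 48.6 in LL (log2 difference 0.13, exact permutation p = 0.6). This ratio was chosen after its values were seen.

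As a share of protein-coding RPF counts, the 6 genes together made up 1.87%, 2.67% and 1.68% in HL, against 2.37%, 3.27% and 2.37% in LL. The share was lower in HL in each pair. The psbA share of the same counts averaged 22.9% ± 1.87 in HL and 10.6% ± 1.71 in LL (SD, n = 3 each), and it enters the denominator. Among plastid RPF counts without psbA, the 6 genes held 6.69%, 7.17% and 5.80% in HL and 7.21%, 7.72% and 6.62% in LL, again lower in HL in each pair but with overlapping groups. No test was made of these sums.

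In total RNA, which asks whether transcript amounts changed, 0 of the 6 genes were called by edgeR, where 0.236% of all 15701 genes were called (37 genes; 371 had an unadjusted p under 0.05). With the pairs it was 0 of 6, where 0.828% of all genes were called, and DESeq2 called 0 of 6. petB had 11497, 7330 and 4500 CPM in total RNA HL, against 8081, 7239 and 6935 CPM in total RNA LL. petD had 7418, 5249 and 3596 CPM in total RNA HL and 6335, 5412 and 5494 CPM in total RNA LL. For both genes the LL libraries lay within the range of the HL libraries. The log2 differences were 0.07 ± 0.40 for petB and -0.08 ± 0.37 for petD (SE, n = 3 each; edgeR adjusted p = 0.99999).

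petA had 1387, 1091 and 873 CPM in total RNA HL and 414, 1129 and 1588 CPM in total RNA LL, so that LL library 1 alone lay below all HL libraries. The log2 difference was 0.10 ± 0.44 (SE) with that library and -0.29 ± 0.35 without it. petL went the other way in that library, with 94.8, 52.5 and 44.1 CPM in total RNA HL, against 142, 38.0 and 17.5 CPM in total RNA LL. Its log2 difference was -0.01 ± 0.61 (SE) with LL library 1 and 1.19 ± 0.42 without it, called in neither fit. Gene length ran with this: of 14 plastid genes under 150 bases with at least 10 counts in every library, 11 were higher in total RNA LL library 1 than in the mean of the other LL libraries, with a median log2 difference of 1.25. Of 56 longer plastid genes 14 were higher there, with a median of -0.98, and the part of length in the petA and petL values was not tested.

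petG had 240, 106 and 52.6 CPM in total RNA HL, against 114, 67.7 and 48.4 CPM in total RNA LL. It was higher in HL in 3 of 3 pairs, but the HL and LL ranges overlapped, and the log2 difference of 0.81 ± 0.49 (SE, n = 3 each; edgeR adjusted p = 0.99999) did not pass the test. petN had 929, 733 and 528 CPM in total RNA HL and 696, 731 and 537 CPM in total RNA LL, a log2 difference of 0.16 ± 0.30 (SE, n = 3 each; edgeR adjusted p = 0.99999).

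Translational efficiency, the change in RPF minus the change in total RNA, was tested as an interaction over the 12 libraries. None of the 6 genes passed, in a comparison where edgeR called 0% of 12789 genes without and 0% with the pairs, DESeq2 called 0, and 179 had an unadjusted p under 0.05. The estimates ran from -0.03 ± 0.47 for petD to -0.86 ± 0.63 for petG (SE; edgeR adjusted p = 0.99969 for each). All 6 estimates were below 0, with a median of -0.17, beside -0.19 over the 69 other plastid genes tested and 0.02 over all genes. With scaling factors from plastid genes alone the median of all genes moved to 0.38 and 5 of the 6 estimates were above 0, at 0.19 to 0.44, with petG at -0.27. Relative to that median petD and petL were at 0.06 and 0.07 and the other 4 below 0. The RPF and total RNA differences are parts of this estimate and are not separate evidence. psbA had 1.22 ± 0.58 (SE, edgeR adjusted p = 0.99969).

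**Figure D2:**
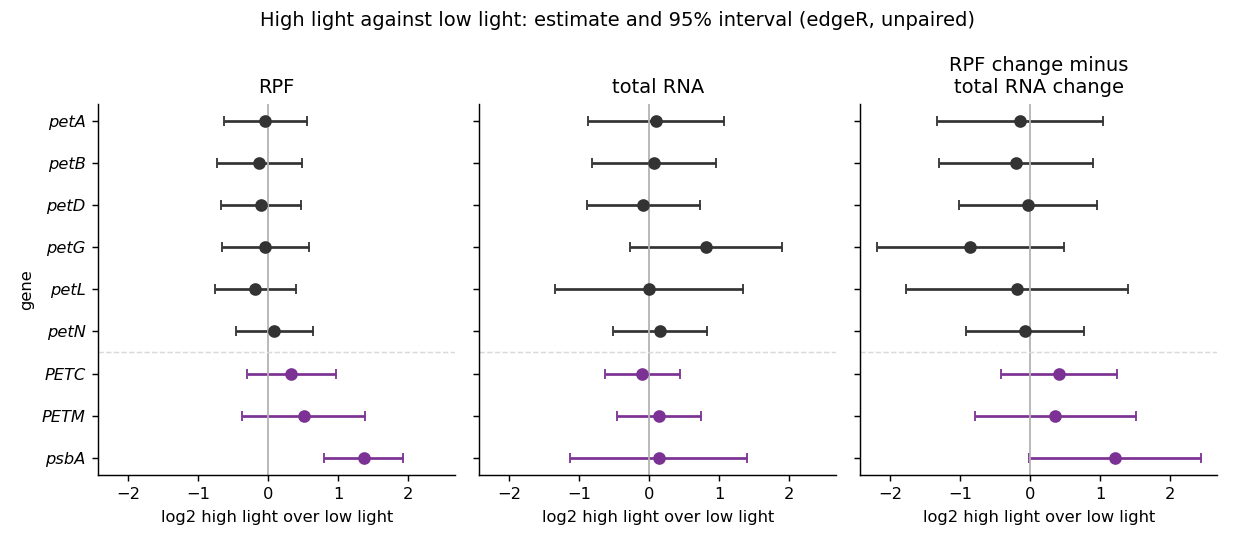
Log2 difference, high light over low light, of the 6 plastid genes (dark) and of PETC, PETM and psbA (purple) in RPF, in total RNA and in RPF minus total RNA, with 95% intervals from the unpaired edgeR fit. The interval of every plastid b6f gene includes 0 in each panel, and psbA stands at 1.37 in RPF.

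The nucleus-encoded partners in the complex were set beside the plastid genes. PETC, the Rieske protein (AT4G03280), averaged 410 ± 106 CPM in RPF HL and 326 ± 88.5 CPM in RPF LL (SD, n = 3 each), a log2 difference of 0.33 ± 0.29 (SE). PETM (AT2G26500) averaged 218 ± 116 CPM in RPF HL and 153 ± 70.9 CPM in RPF LL (SD, n = 3 each), a log2 difference of 0.51 ± 0.41 (SE). Both were higher in HL in 3 of 3 pairs, with overlapping groups, and neither passed the edgeR test (adjusted p = 0.99994 without and 0.269 and 0.0751 with the pairs). In total RNA PETC differed by -0.10 ± 0.24 and PETM by 0.14 ± 0.27 (log2, SE; edgeR adjusted p = 0.99999). The ratio of petA to PETC counts, one gene translated in the plastid and the other in the cytosol, was 4.05, 9.64 and 3.84 in RPF HL, against 5.44, 11.3 and 5.55 in RPF LL. It was lower in HL in 3 of 3 pairs, but the spread between numbers was larger than the difference. The difference was -0.40 on the log2 scale (exact permutation test, two-sided, p = 0.5, adjusted p = 0.8 over 4 ratio tests). This test does not use the pairs. With 3 pairs, a test that flips the sign of each difference cannot give p below 0.25. In total RNA the ratio was 5.40, 4.28 and 3.89 in HL and 1.44, 4.94 and 5.89 in LL, a log2 difference of 0.37 (exact permutation p = 0.9) that turned to -0.27 without LL library 1.

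Among the large subunits, petB and petD kept a narrow ratio. petB counts over petD counts were 1.616, 1.631 and 1.398 in RPF HL, against 1.603, 1.665 and 1.464 in RPF LL. In total RNA they were 1.550, 1.396 and 1.251 in HL and 1.276, 1.338 and 1.262 in LL. petB counts over petA counts lay between 5.13 and 6.67 in the 6 RPF libraries, while in total RNA LL they were 19.5, 6.41 and 4.37, with the first again from LL library 1. The small neighbours petG and petL varied more: petG counts over petL counts were 1.448, 1.338 and 1.264 in RPF HL and 1.690, 1.198 and 0.883 in RPF LL. In total RNA they were 2.53, 2.02 and 1.19 in HL and 0.798, 1.79 and 2.76 in LL, so the HL and LL ranges overlapped in both kinds of library.

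**Figure D3:**
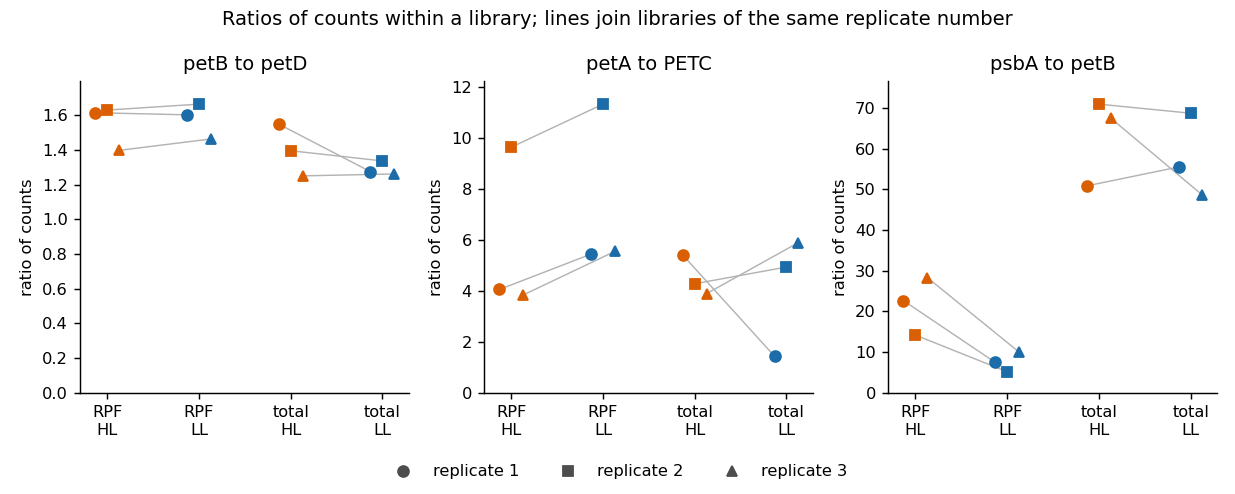
Ratios of counts within each library (vertical axes from 0) for petB to petD, petA to PETC and psbA to petB, with high light (HL, orange) left of low light (LL, blue) and grey lines joining libraries of the same replicate number. The RPF ratio of psbA to petB is 14.2 to 28.3 in HL and 5.19 to 10.0 in LL, while petB to petD stays between 1.25 and 1.67 over the 12 libraries.

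RPF set against total RNA within a light condition asks how the footprint counts of a gene stood to its RNA counts. For genes near 100 bases, footprints and total RNA fragments may not be counted over the span in the same way, so the ratio of a short gene is not a direct measure of footprints per transcript. petN stood apart from the other members here. Over libraries of the same number, the log2 ratio of RPF to total RNA CPM of petN was -1.96, -1.90 and -1.67 in HL and -1.61, -2.19 and -1.61 in LL. Every one of the 6 values lay below those of the other members in the same pair of libraries, by 1.00 to 3.11 on the log2 scale from the lowest of them, a difference within libraries that scaling cannot alter. In fold terms petN lay 4.01 to 10.8 times below the median of the other members.

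In the edgeR contrast petN was lower in RPF than in total RNA, with a log2 difference of -1.92 ± 0.29 in HL (SE, adjusted p = 0.000444) and -1.84 ± 0.29 in LL (SE, adjusted p = 0.000643). Without both RPF libraries numbered 1 the values were -2.06 in HL (edgeR adjusted p = 0.0015) and -2.01 in LL (0.00195). In this direction 0.563% of all genes were called lower in HL and 1.18% in LL. Among 75 plastid genes tested, this value of petN ranked last in HL and 74th in LL, where psbA, at -2.12 ± 0.43, was below it. Other plastid genes of similar length did not share one value. By group means of CPM, the log2 ratio of RPF to total RNA over the 14 genes under 150 bases ran from -1.87 in HL (petN) to 1.88 (psbT), with a median of 0.35 in HL and 0.83 in LL. The 56 longer plastid genes had medians of 0.99 in HL and 1.21 in LL, so the short genes had the lower median in both lights. petL, at 96 bases, had 0.76 in HL and 0.91 in LL, and petG, at 114 bases, 0.15 in HL and 0.98 in LL. Low values were also found at psbJ, of 123 bases, with -1.29 in HL and -1.11 in LL. psaJ, of 135 bases, had -1.16 in HL and -1.32 in LL. The part of gene length in the petN value was not tested.

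None of the other members passed in this contrast. In HL the log2 values were 0.91 ± 0.40 for petA, 0.66 ± 0.37 for petB, 0.54 ± 0.33 for petD, 0.10 ± 0.45 for petG and 0.72 ± 0.53 for petL (SE; edgeR adjusted p = 0.119 to 0.906), while 20.2% of all genes were called higher. In LL they were 1.06 ± 0.40 for petA, 0.86 ± 0.37 for petB, 0.57 ± 0.33 for petD, 0.95 ± 0.45 for petG and 0.90 ± 0.54 for petL (SE; edgeR adjusted p = 0.0733 to 0.243), while 19.7% were called higher. With the pairs, 4 of them were called higher in LL: petA at 1.12 ± 0.35 (adjusted p = 0.0209), petB at 0.85 ± 0.29 (0.0338), petG at 1.01 ± 0.28 (0.0102) and petL at 1.28 ± 0.43 (0.0308), while 28.4% of all genes were called higher. The fit with the pairs has 1 term per replicate number, shared by RPF and total RNA. Its SE are not the spread of the ratios within numbers. In LL these log2 ratios were -0.61, 2.09 and 2.74 for petL (SD 1.77). They were 2.21, 1.19 and 0.48 for petA (SD 0.87). Those of petB and petG were above 0 in every pair. Of the 69 other plastid genes tested, 24 were called higher in HL and 27 in LL without the pairs. With the pairs 40 of them were called higher in LL. Leaving out total RNA LL library 1 put the LL value of petL at 2.09 (edgeR adjusted p = 0.00396) and the HL value of petA at 0.90 (0.0482), the spread being shared by all groups in this fit. Leaving out total RNA LL library 3 put the LL value of petA at 1.496 (edgeR adjusted p = 0.0305). Leaving out total RNA HL library 3 put the LL value of petB at 0.93 (edgeR adjusted p = 0.0336). No share of all genes called is set beside the calls without single libraries, so they describe the settings and not the members.

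These values depend on how RPF and total RNA are scaled to each other. The median of all genes was 0.41 in HL and in LL with factors computed within each kind of library, and -0.03 in both with factors over the 12 libraries together, when 601 genes were called higher and 218 lower in HL and 633 higher and 428 lower in LL. Within each kind the numbers were 2582 higher and 72 lower in HL and 2522 higher and 151 lower in LL. Relative to the median, petN was at -2.33 in HL and -2.25 in LL, and between -2.23 and -2.33 over the 5 scalings run. petA, petB, petD and petL stayed above the median of all genes in both lights under those scalings. petG stayed above it in LL and below it in HL. The median of the 75 plastid genes tested was higher, at 0.86 in HL and 1.11 in LL with factors within each kind. Of these 75, from the highest value, petA ranked 37 in HL and 40 in LL, petB 49 and 46, and petD 52 and 57. petG ranked 58 in HL and 43 in LL, and petL 46 and 45. With rRNA and tRNA genes in the scaling the median of all genes fell to -0.80 in HL and -0.81 in LL. The plain values of all 6 genes were then below 0.

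**Figure D4:**
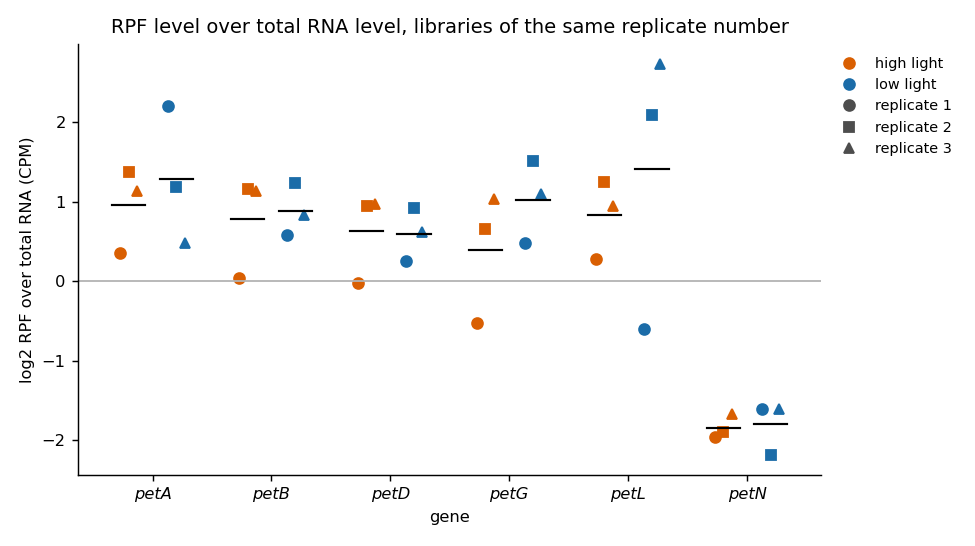
Log2 ratio of RPF level to total RNA level (CPM) of each of the 6 genes, for libraries of the same replicate number, with high light (orange) left of low light (blue) and the mean of 3 pairs as a black line. petN lies between -1.61 and -2.19, below every value of the other genes.

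The genes that surround the members on the plastid chromosome gave no calls between the lights either. Of 10 neighbours, edgeR called 0 in RPF and 0 in total RNA, with medians of -0.13 and 0.04 on the log2 scale. In the run psbB, psbT, psbH, petB and petD, RPF levels were highest at psbT, with 19757 ± 7484 CPM per kb in HL and 22786 ± 8612 CPM per kb in LL, and lowest at petD, with 6832 CPM per kb in HL and 7331 CPM per kb in LL. psbB, which encodes the CP47 antenna protein of photosystem II, had 17666 ± 6516 CPM per kb in HL and 20366 ± 5992 CPM per kb in LL in RPF. At the end of the run of psaI, ycf4, cemA and petA, the RPF level of petA was 2257 CPM per kb in HL and 2318 CPM per kb in LL, beside 2509 ± 602 CPM per kb in HL and 2839 ± 543 CPM per kb in LL for cemA. In total RNA petA had the higher mean of this pair, at 1160 ± 268 CPM per kb in HL and 1084 ± 614 CPM per kb in LL. cemA had 649 ± 435 CPM per kb in HL and 411 ± 12.7 CPM per kb in LL (SD, n = 3 each). In total RNA LL library 1 petA was at 430 CPM per kb, near the LL mean of cemA. Beside petL and petG, psaJ, a small subunit of photosystem I, stood out with 10617 ± 8193 CPM per kb in HL and 11065 ± 10001 CPM per kb in LL in total RNA. The spans of petB and petD include an intron each, and a spliced intron lowers their levels per kilobase. Their place in the order of the run therefore holds for the whole span only. psbT, at 102 bases, and psaJ, at 135 bases, are short genes, and the part of length in their levels per kilobase was not tested.

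**Figure D5:**
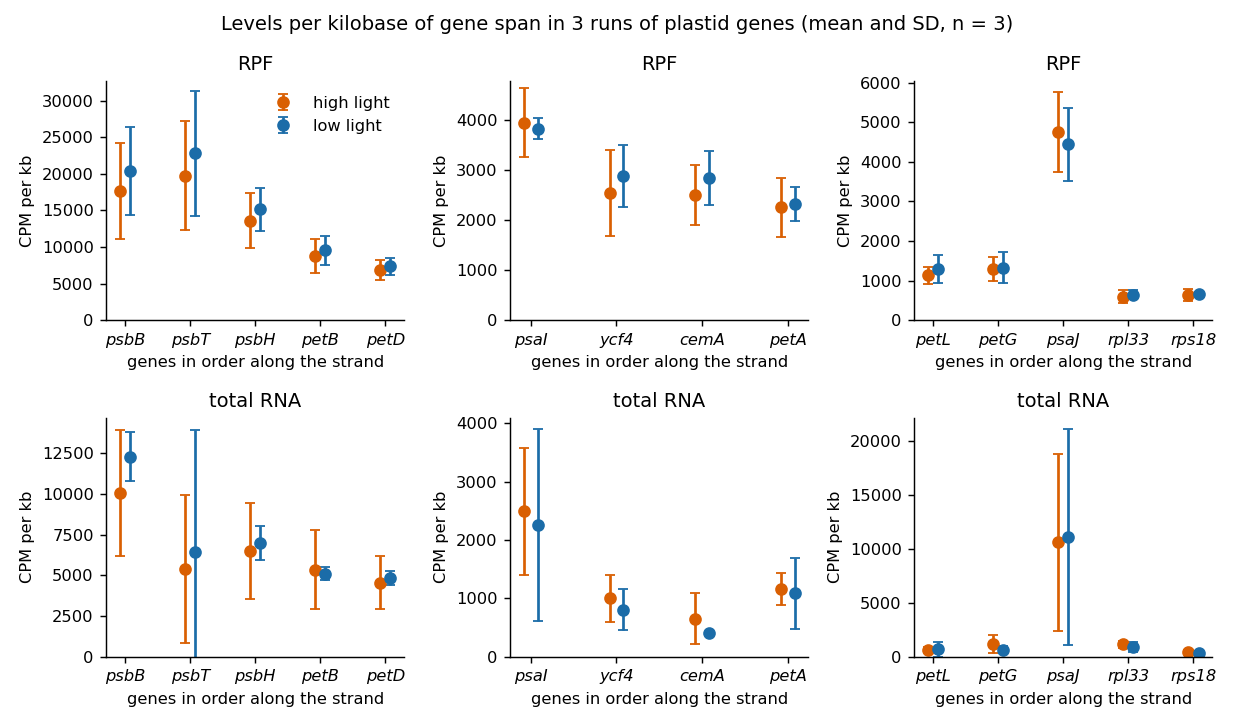
Mean level per kilobase of gene span, with SD over 3 libraries (cut off at 0), of plastid genes in their order along the strand, in RPF (top) and total RNA (bottom), high light (orange) left of low light (blue). In the left panels petB and petD close the run that begins with psbB, at 8744 and 6832 CPM per kb in RPF HL. The spans of petB and petD include an intron each, and a spliced intron lowers these values. psbN, which lies on the opposite strand between psbT and psbH, is not drawn.

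Across the 12 libraries, with the mean of each kind of library removed from log2(CPM + 1), the gene most like petB was petD (Pearson r = 0.97), followed by psbH (0.92), the gene just before petB. petD was most like petB and then psbD (0.95), which encodes the D2 protein. petA was most like atpA (0.98), the alpha subunit of the plastid ATP synthase, and ndhI (0.95), a subunit of the NDH complex, and less like its neighbour cemA (0.36). petL was most like psbN (0.96) and psaI (0.94), petG like ndhE (0.93) and SIRANBP (0.93), and petN like psbJ (0.92) and ROC3 (0.90), a cytosolic cyclophilin gene. petL and petG, 190 bases apart, had an r of 0.74. These values describe 1966 candidate genes over 12 libraries that share depth, number and light, so they say nothing of shared control. Total RNA LL library 1 set some of these genes apart from the mean of the other LL libraries. The log2 difference there was 2.36 for petL, 2.25 for psbN and 1.63 for psaI. It was -1.71 for petA, -1.46 for atpA and -1.56 for ndhI. The part of that library and of gene length in the r values was not tested.

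Of the 10 electron carriers and regulators around the complex, edgeR called 0 in RPF and 1 higher in total RNA: FD1 (AT1G10960), a leaf ferredoxin, which averaged 29.6 ± 2.94 CPM in HL and 11.4 ± 1.98 CPM in LL in total RNA (SD, n = 3 each), a log2 difference of 1.35 ± 0.22 (SE, adjusted p = 0.0398). The call was lost when any 1 of the 6 total RNA libraries was left out, with values of 1.25 to 1.49 and adjusted p of 0.0563 to 0.288, and with scaling over plastid genes (1.41, adjusted p = 0.37). With the pairs it passed, at 1.37 ± 0.16 (SE, edgeR adjusted p = 0.000267). In RPF FD1 differed by 1.15 ± 0.27 (SE, edgeR adjusted p = 0.235), and with the pairs it was called at 1.16 ± 0.21 (adjusted p = 1.85e-05). The plastocyanin gene PETE2 differed by 0.18 ± 0.30 in RPF, and PGRL1B, of the cyclic pathway, by -0.57 ± 0.36 (log2, SE; edgeR adjusted p = 0.99994).

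Of the 10 assembly genes, which attach haem to cytochromes f and b6 or otherwise help build the complex, 9 were tested in RPF and 10 in total RNA, and edgeR called 0 in each, with medians of -0.11 and 0.13. CCB1, which acts in haem attachment to cytochrome b6, differed by 0.62 ± 0.26 in RPF (SE, adjusted p = 0.99994). Of 6 nucleus-encoded factors for plastid RNA, 0 were called in RPF or total RNA. CRP1, needed for petA translation and petD processing in maize, differed by -0.40 ± 0.26 in RPF and -0.48 ± 0.22 in total RNA (log2, SE; edgeR adjusted p = 0.99994 and 0.99999). HCF152, which acts on the petB transcripts, differed by 0.24 ± 0.35 in RPF and -0.33 ± 0.25 in total RNA.

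Set beside the other thylakoid complexes, the median log2 difference in RPF was -0.07 for the 6 b6f genes, -0.02 for 15 photosystem II genes, -0.04 for 5 photosystem I genes and -0.11 for 6 ATP synthase genes. edgeR called 0 genes of each list in RPF and in total RNA, and with the pairs psbA alone was called among them in RPF.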

How the data were processed

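The authors deposited raw counts for each gene and library, made, per the file headers, with featureCounts 1.5.0-p1 over whole gene spans of TAIR10, read strand used, from Bowtie2 alignments for RPF and subjunc alignments for total RNA. Per the submitters' processing notes, cutadapt 1.9.1, FastQC 0.11.5, Bowtie2 2.2.9 and Subread 1.4.5 were used. Per the labels, RPF came from RNase If digestion of pelleted polysomes and total RNA was depleted of plant rRNA.

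The 26789 protein-coding genes were fitted (643 genes without a type were left out) with edgeR 4.0.16 in R 4.3.3: filterByExpr, TMM within each kind of library, quasi-likelihood test, Benjamini-Hochberg adjusted p under 0.05 over all genes tested. SE is the log2 value divided by the square root of F. CPM use the TMM library sizes. The script was tested on simulated data. Genes were named from a set made by a rule, which held the 6 members, psbA, PETC and PETM. From each list the rule took the 2 smallest p in each comparison between the lights and the most abundant RPF gene. For each member it took the 2 genes most like it whose log2(CPM + 1) averaged 5 or more. Not every gene of this set is described here. psbT, psbH and the group CPM ratios of short genes were added after their values were seen. The members and lists were chosen with earlier results of these data known. Names came from a RefSeq gene table (TAIR10.1), which matched 123 of 133 plastid genes by coordinates.

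Replicate numbers were treated as pairs in a second fit, because HL and LL libraries of the same number deviated together from their group means (r = 0.48, 0.44 and 0.30 in RPF; 0.48, 0.56 and 0.42 in total RNA), and files of a number share an experiment name. No replicates held identical counts. Alternatives were DESeq2 1.42.0 and its size factors, TMM over plastid genes or over all libraries together, no filter, all genes, and leaving libraries out. The fewest counts of the 6 genes were those of petL, with 87 to 222 per RPF library. Ratios used exact permutation tests (Python 3.11.15, scipy 1.17.1). Sequences of the genes were not used here.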

Additional observations from a re-analysis of the deposited data

How the results depend on the processing

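Between the lights, 0 of the 6 genes were called in RPF, in total RNA or in translational efficiency under any of the 22, 14 and 22 alternatives run, with values from -0.41 to 0.25, -0.47 to 1.19 and -1.39 to 0.44 on the log2 scale. Signs of these uncalled values changed in 25 of 132, 16 of 84 and 28 of 132 cases. petN was lower in RPF than in total RNA under all 23 alternatives in each light, from -3.11 to -1.67 in HL and from -3.05 to -1.75 in LL.

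The replicate block raised the number of the 6 genes called against total RNA in LL from 1 to 5, and DESeq2 to 3. In HL the block left it at 1. With the block, 4 of those in LL were higher and 1, petN, was lower. The share of all genes called higher in LL rose with the block from 19.7% to 28.4%. Added after the data were seen, a block within each kind of library gave 4 in HL and 5 in LL, a block with DESeq2 2 and 4, and a block with TMM over plastid genes 5 and 2. Leaving out single libraries gave 1 to 2 in each light. Every one of these counts includes petN, which was lower. Apart from the block, no share of all genes is set beside these counts, so they describe the settings and not the members. The ratio of petA to PETC in total RNA, 0.37 with all libraries, ran from -0.27 to 0.75 when single libraries were left out; its p cannot pass 0.05. The cause of these differences was not tested.

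Counts of all genes called moved more. In RPF, 24 became 196 with the block, 38 with DESeq2, 46 unfiltered, 5 with all genes and 7 to 21 without single libraries. In total RNA, 37 became 130, 64 and 58 in the same order, and 14 without LL library 3. Against total RNA, 2654 in HL became 6986 with all genes and 819 with TMM together, and 2673 in LL became 7068, 1061, and 552 with TMM over plastid genes. petL had the fewest counts, and counting error was not separated from the spread between replicates.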
